A study of Mus musculus with 16 samples.

Results

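The VHL ubiquitin ligase and the hydroxylases that mark its substrate were followed in tail tendon fascicles of mice with and without Vhl. The set was 9 genes chosen by function, out of 25719 genes counted: the ligase subunits Vhl, Elob, Eloc, Cul2 and Rbx1, the prolyl hydroxylases Egln1, Egln2 and Egln3, and the asparaginyl hydroxylase Hif1an. All 9 were found by their symbols, and all 9 passed the filter on low counts. RNA of fascicles, the collagen-rich strands pulled from the tail, was sequenced in 8 libraries from wild type mice and 8 libraries from knockout mice. The knockout mice carried the ScxCre driver and floxed alleles of Vhl (ScxCre;Vhlf/f), so that Cre recombinase acts in cells in which the tendon gene Scx is or was active. For the wild type group the labels list no allele, and age and sex are not given in the sources used here. The labels state the cell type as all cells of the tissue. RNA of cells outside the Scx lineage, in which this Cre is not meant to act, can therefore be part of a library; the share of recombined cells was not measured here. Fewer cells of a type cannot be told apart from less RNA per cell. The labels do not say that each library is a separate animal, so p-values measure the spread between these libraries, which may be technical in part.

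The hypoxia-inducible factors (HIF) are kept in check at normal oxygen by hydroxylation. EGLN1, EGLN2 and EGLN3 use oxygen, iron and 2-oxoglutarate to hydroxylate prolines of the HIF alpha subunits. The VHL protein binds the hydroxylated proline, and its partners elongin B (Elob), elongin C (Eloc), the scaffold cullin 2 (Cul2) and the RING protein RBX1 bring the ubiquitin-conjugating enzyme that marks HIF alpha for the proteasome. The asparaginyl hydroxylase encoded by Hif1an, known as FIH, acts apart from this route and blocks the binding of the coactivator p300. Egln1 and Egln3 are themselves known target genes of HIF, whereas Egln2 and Hif1an are not counted among the usual ones.

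Total counts ran from 10488355 to 18753254 per library, and every member had at least 49 counts in each library. Values are CPM, counts relative to library sizes that were scaled by the trimmed mean of M-values (TMM). Tendon markers were high in both genotypes, but 6 of 9 were lower and 1 was higher in the knockout. Fmod lay between 4933 and 7368 CPM in the knockout and between 12160 and 19000 CPM in the wild type, whereas Thbs4 lay between 2887 and 4617 CPM and between 2591 and 4309 CPM. The knockout held more RNA of vessels and blood, with summed CPM of 10 endothelial markers between 74.3 and 523 against 40.6 to 61.6 in the wild type, and of 6 erythroid markers between 77.8 and 562 against 15.1 to 50.7. Of the endothelial markers, 6 of 7 tested were higher, and 5 of 5 tested erythroid markers were. Summed skeletal muscle markers stood above 4000 CPM in knockout libraries 6, 7 and 8 (6190 to 8213) and in wild type library 5 (4295), against 51.8 to 1203 in the other 12. Scx itself was high in knockout libraries 5, 6 and 8 and wild type library 8 (479 to 1251 CPM, against 54.5 to 140 in the rest). Scaling to total counts moves the median log2 fold change of all tested genes from 0.02 to 0.32, and the share of called genes that are higher from 53% to 85.4%, so small differences depend on the scale.

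Of the 9 members, 4 passed the threshold of an adjusted p under 0.05 between genotypes, where 48.3% of all 14803 tested genes did. In the knockout 3 were higher (Egln1, Egln3 and Hif1an; 25.6% of all tested genes were higher) and 1 was lower (Vhl; 22.7% were lower). For Vhl, Egln1 and Egln3 no knockout value fell within the wild type range, which held for 19.4% of all tested genes. A share of 4 in 9 is near the background. What sets the members apart from each other is the size of the difference, which ran from a log2 fold change of -1.13 for Vhl to 6.08 for Egln3. With total counts 7 members passed, Cul2, Rbx1 and Egln2 being the added ones, where 9685 of the 14803 tested genes did.

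**Figure D1:**
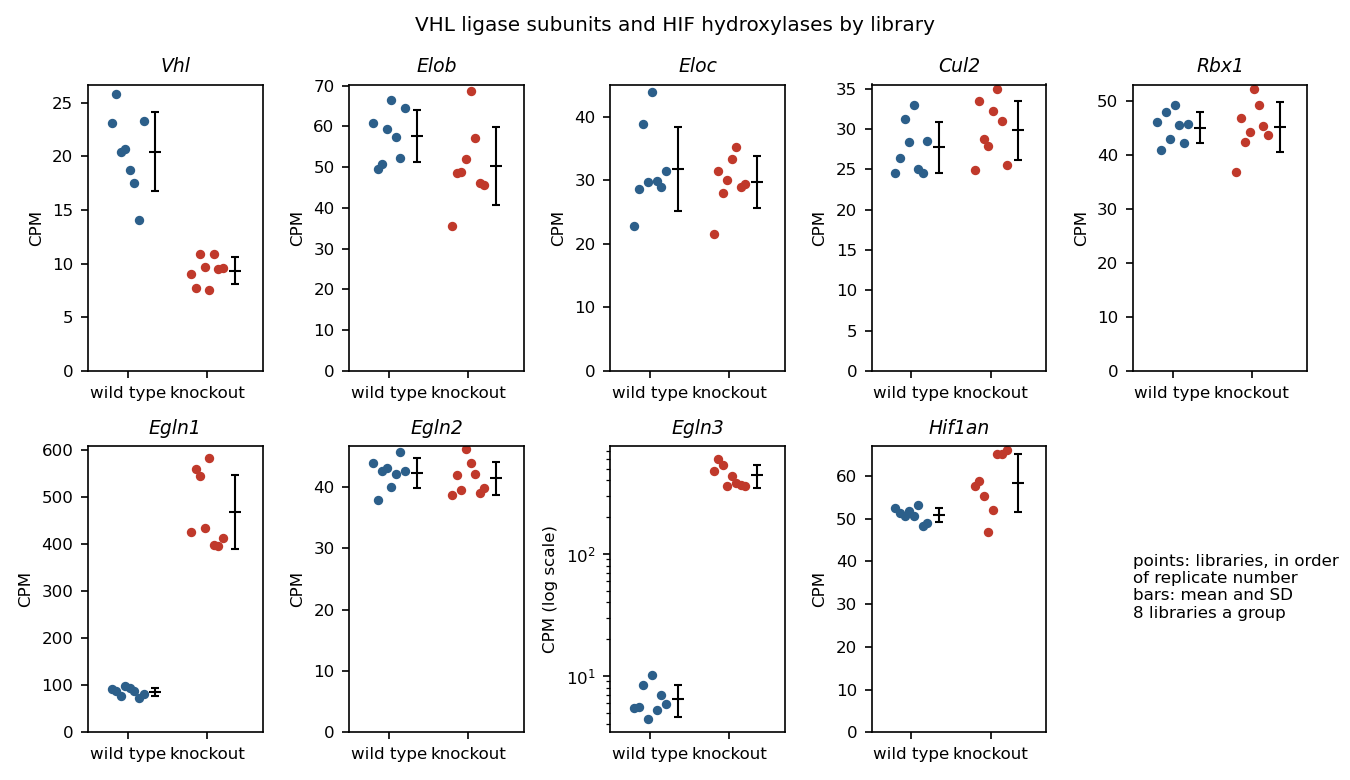
CPM (TMM scale) of each of the 9 genes in the 8 wild type (blue) and 8 knockout (red) libraries. Points are libraries in the order of their replicate number, bars are the mean and SD, and the Egln3 axis is logarithmic. Vhl, Egln1 and Egln3 separate the genotypes completely, and the other 6 genes overlap.

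Vhl (ENSMUSG00000033933, chromosome 6) is the substrate-binding subunit of the ligase and the gene targeted in this model. Its lowest, median and highest values were 7.51, 9.53 and 10.9 CPM in the knockout and 14.1, 20.6 and 25.8 CPM in the wild type. All 8 knockout libraries were below the lowest wild type library, which was library 7, so the targeted gene was lower in every library given as knockout. Vhl had a log2 fold change of -1.13 (SE 0.113, 95% interval -1.37 to -0.89; edgeR's quasi-likelihood F test, p adjusted by Benjamini-Hochberg over all tested genes, 9.64e-08). The knockout mean, 9.35 ± 1.25 CPM (SD, n = 8), was 45.7% of the wild type mean of 20.5 ± 3.69 CPM. Single knockout libraries kept between 36.7% and 53.3% of it, on 91 to 215 counts each. The counts are per gene and the labels do not name the deleted exons, so RNA of an allele that has lost part of the gene and RNA of cells that did not recombine are both included.

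The partners of VHL in the ligase stayed close to the wild type. For Rbx1 (chromosome 15), the RING subunit that holds the ubiquitin-conjugating enzyme, the lowest, median and highest values were 36.8, 44.7 and 52.3 CPM in the knockout and 40.9, 45.6 and 49.2 CPM in the wild type. The knockout range enclosed the wild type range, and the log2 fold change was 0.00 (95% interval -0.14 to 0.14, adjusted p = 0.971). Cul2, the scaffold, had 24.9, 29.9 and 34.98 CPM in the knockout and 24.6, 27.4 and 33.0 CPM in the wild type. Its log2 fold change was 0.11 (95% interval -0.07 to 0.29, adjusted p = 0.307). For Eloc (chromosome 1), the adaptor that touches both VHL and the cullin, the values were 21.6, 29.7 and 35.3 CPM in the knockout and 22.8, 29.8 and 44.0 CPM in the wild type, with a log2 fold change of -0.09 (95% interval -0.34 to 0.15, adjusted p = 0.529). None of the intervals of Rbx1, Cul2 and Eloc reached a 1.5-fold difference in either direction. With total counts the log2 fold changes were 0.30 for Rbx1, 0.40 for Cul2 and 0.20 for Eloc, near the median of 0.32 of all genes on that scale, and Rbx1 and Cul2 then passed the threshold.

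Elob (chromosome 17) had the widest spread of the ligase genes in the knockout, with a coefficient of variation of 19.1%. This elongin B subunit stabilises elongin C and is shared with other elongin-based ligases. Its lowest, median and highest values were 35.5, 48.8 and 68.6 CPM in the knockout and 49.5, 58.4 and 66.4 CPM in the wild type. In the knockout 5 libraries lay below the lowest wild type library while library 5 lay above the highest. The log2 fold change of -0.19 (SE 0.103, 95% interval -0.41 to 0.02) did not pass the threshold (adjusted p = 0.128). Without knockout library 5 it was -0.27 and passed (adjusted p = 0.0178), and without the 4 libraries with high Scx it was -0.30 (adjusted p = 0.0226). With total counts its sign changed, to 0.11.

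Ratios of 2 members within a library do not depend on how libraries are scaled, and they showed Vhl apart from its partners. There were 0.731 Vhl counts per Cul2 count in the wild type (geometric mean, range 0.567 to 0.977) and 0.313 in the knockout (range 0.231 to 0.377). The log2 ratio differed by -1.22, with no overlap (two-sided exact permutation test over 12870 assignments, p = 0.000155, the smallest that 8 against 8 libraries can give; 0.000259 adjusted over the 10 ratios tested). Vhl against Rbx1 differed by -1.12 and Vhl against Elob by -0.91, with the same p. Ratios among the partners overlapped between genotypes: Rbx1 to Cul2 differed by -0.11 (exact permutation test, adjusted p = 0.111) and Eloc to Elob by 0.13 (adjusted p = 0.340).

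Egln3 (ENSMUSG00000035105, chromosome 12) had the largest difference of the 9 members. It encodes PHD3, the prolyl hydroxylase whose transcript is known to be strongly induced by hypoxia in many cells. Its lowest, median and highest values were 357, 406 and 599 CPM in the knockout and 4.39, 5.71 and 10.1 CPM in the wild type. The lowest knockout library was 35.4 times the highest wild type library. The fold change was 67.6 (95% interval 51.4 to 88.9; log2 6.08, SE 0.189, adjusted p = 1.04e-14, edgeR quasi-likelihood test). The wild type values rest on 49 to 108 counts a library and varied more, with a coefficient of variation of 29.2% against 21.1% in the knockout.

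Egln1 (ENSMUSG00000031987, chromosome 8) encodes PHD2, regarded as the main oxygen-dependent regulator of HIF1 alpha. Its lowest, median and highest values were 395, 430 and 583 CPM in the knockout and 73.9, 87.9 and 98.1 CPM in the wild type. Every knockout library had at least 4.02 times the highest wild type value. The fold change was 5.41 (95% interval 4.67 to 6.26; log2 2.43, SE 0.101, adjusted p = 3.38e-13, edgeR quasi-likelihood test). Within the knockout, libraries 2, 3 and 5 reached 544 to 583 CPM and the other 5 stayed between 395 and 434 CPM.

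Egln2 (ENSMUSG00000058709, chromosome 7) encodes PHD1, the prolyl hydroxylase found mainly in the nucleus. The lowest, median and highest values were 38.7, 40.9 and 46.2 CPM in the knockout and 37.8, 42.5 and 45.7 CPM in the wild type. The ranges almost coincided. The log2 fold change of -0.03 (SE 0.0544, adjusted p = 0.681) had a 95% interval of -0.14 to 0.08, the narrowest of the 9. With total counts the sign changed, to 0.27 (adjusted p = 0.00271), where the median of all genes was 0.32.

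**Figure D2:**
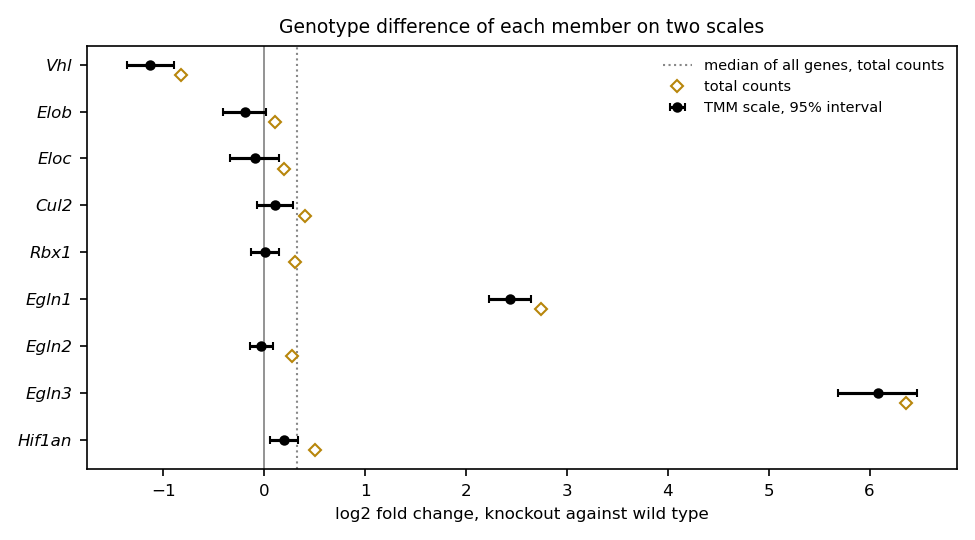
Log2 fold change of each member between knockout and wild type. Black points with 95% intervals are on the TMM scale, open diamonds are with total counts, and the dotted line is the median of all tested genes with total counts, 0.32. Vhl, Egln1, Egln3 and Hif1an pass the threshold in the same direction on both scales. The intervals of Elob, Eloc, Cul2, Rbx1 and Egln2 include 0 on the TMM scale.

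The promoter sequences of the 3 prolyl hydroxylase genes are shown because these paralogs differ in how their transcripts moved. They are the 250 bases before the gene start, read 5′ to 3′ along the gene from RefSeq (GRCm38.p6), at chr8:124949255-124949504 for Egln1, chr7:27166803-27167052 for Egln2 and chr12:54203875-54204124 for Egln3, all on the minus strand. Capitals mark ACGTG and GCGTG, the forms of the core of a hypoxia response element, on either strand (CACGT or CACGC when they lie on the opposite strand).
Egln1: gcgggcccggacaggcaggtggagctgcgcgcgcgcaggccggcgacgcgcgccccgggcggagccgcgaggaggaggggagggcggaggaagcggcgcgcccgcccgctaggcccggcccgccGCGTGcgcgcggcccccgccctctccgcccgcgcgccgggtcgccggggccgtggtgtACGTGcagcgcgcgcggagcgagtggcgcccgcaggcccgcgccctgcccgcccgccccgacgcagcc
Egln2: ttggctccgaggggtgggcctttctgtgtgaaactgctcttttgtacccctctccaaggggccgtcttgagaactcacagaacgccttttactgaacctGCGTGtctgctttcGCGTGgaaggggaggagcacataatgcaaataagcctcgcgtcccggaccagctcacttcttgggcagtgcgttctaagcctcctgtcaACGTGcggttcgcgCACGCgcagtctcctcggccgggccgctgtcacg
Egln3: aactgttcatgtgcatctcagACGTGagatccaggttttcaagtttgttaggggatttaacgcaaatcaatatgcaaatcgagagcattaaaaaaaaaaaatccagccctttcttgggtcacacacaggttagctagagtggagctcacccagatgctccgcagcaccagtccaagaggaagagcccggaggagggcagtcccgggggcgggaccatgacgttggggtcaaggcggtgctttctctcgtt

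The core motif was found in all 3 windows. Egln2 has a second entry, which held 1 GCGTG and is not shown. The Egln1 window held 1 ACGTG, starting 68 bases before the gene start, and 1 GCGTG at 126 bases. The Egln3 window held 1 ACGTG, at 229 bases, and no GCGTG. Egln2, whose transcript did not pass the threshold, held the most of the 3 in its window shown, with 1 ACGTG and 3 GCGTG. None of these matches was part of a CACGTG. Such short motifs are frequent: ACGTG occurred in 16.6% and GCGTG in 28.2% of 32851 promoter windows of the same length, and either occurred in 38.6%. Of the other members in the table, Elob and Rbx1 had 2 GCGTG each, and Vhl and Hif1an had neither motif. Cul2 and Eloc have no entry. The windows also differed in base composition, with 86% G and C for Egln1, 59.2% for Egln2 and 50.8% for Egln3. A match is a description of letters and not of binding, and enhancers outside the window were not searched.

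The make-up of the prolyl hydroxylase transcripts changed from a mix of Egln1 and Egln2 to a mix of Egln1 and Egln3. For levels that can be compared between genes, counts were divided by the length of the principal transcript in GENCODE M21. Egln3 made up 5.25% ± 1.50 of the summed Egln1 to Egln3 count per kilobase in the wild type (SD, n = 8, range 3.34% to 7.71%) and 52.1% ± 3.56 in the knockout (range 47.1% to 57.0%). The difference of 46.9 percentage points had no overlap (two-sided exact permutation test, p = 0.000155, the smallest possible). The share of Egln2 was 43.1% ± 2.99 in wild type and 6.38% ± 1.09 in knockout libraries, and that of Egln1 was 51.7% ± 3.35 and 41.5% ± 2.99. The sum of the 3 was 46.6 ± 2.16 CPM per kilobase in wild type and 315 ± 52.6 in knockout libraries. Egln2 alone stood at 20.03 ± 1.13 and 19.6 ± 1.26, so its share fell while its own level stayed close to the wild type. Without lengths, on counts alone, the difference in the Egln3 share was 41.2 percentage points.

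**Figure D3:**
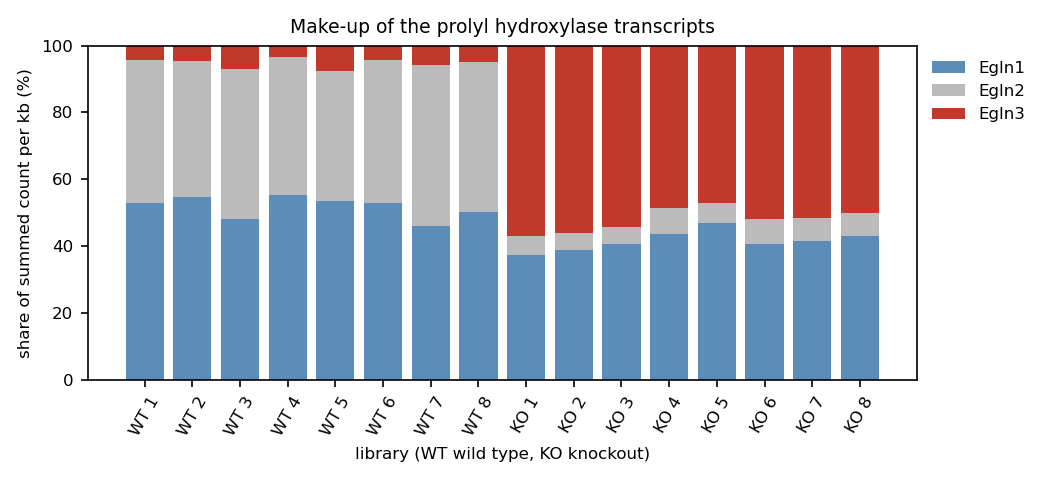
Share of Egln1 (blue), Egln2 (grey) and Egln3 (red) in their summed count per kilobase, 1 bar for each wild type (WT) and knockout (KO) library. Egln3 takes 3.34% to 7.71% in the wild type and 47.1% to 57.0% in the knockout, and the share of Egln2 is at most 7.91% there.

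The ratio of the 2 raised enzymes to each other changed as well. There were 0.0728 Egln3 counts per Egln1 count in the wild type (geometric mean, range 0.0448 to 0.108) and 0.930 in the knockout (range 0.743 to 1.13). The log2 ratio differed by 3.68 (two-sided exact permutation test, p = 0.000155; adjusted 0.000259), so the rise of Egln3 exceeded that of Egln1 whatever the scaling. Egln1 to Egln2 differed by 2.45 and Egln3 to Egln2 by 6.13, with the same p and no overlap.

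Hif1an (ENSMUSG00000036450, chromosome 19) differed little. The lowest, median and highest values were 46.9, 58.2 and 66.0 CPM in the knockout and 48.3, 51.0 and 53.2 CPM in the wild type. In the knockout 6 libraries lay above the highest wild type library, and library 4 lay below the lowest. The log2 fold change was 0.20 (SE 0.0659, 95% interval 0.06 to 0.34, adjusted p = 0.0184, edgeR quasi-likelihood test). The call held with any 1 library left out (0.17 to 0.24) but not without some groups of libraries. Knockout libraries 6, 7 and 8, the ones with 6190 to 8213 summed CPM of muscle markers, had 65.0 to 66.0 CPM of Hif1an, and the other 5 had 46.9 to 58.8 CPM. Without the 4 muscle-rich libraries the log2 fold change was 0.09 (adjusted p = 0.315), with the muscle score as a covariate it was 0.15 (adjusted p = 0.1003), and without the 4 libraries with high Scx it was 0.14 (adjusted p = 0.123). With total counts it was 0.50 (edgeR quasi-likelihood test, adjusted p = 1.93e-05), where the median of all genes was 0.32. Within libraries, Hif1an to Egln2 differed by 0.22, which missed the threshold over the 10 ratios (exact permutation test, p = 0.0399, adjusted 0.0571), and Hif1an to Cul2 by 0.08 (adjusted p = 0.433).

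The same 3 knockout libraries were also the lowest for Egln1. They had 395 to 414 CPM, below all of the other 5 knockout libraries at 425 to 583 CPM. Egln3 had 357 to 378 CPM in them and 358 to 599 CPM in the other 5, which overlaps at knockout library 4. In the wild type, library 5, with the most muscle RNA, had the highest Egln3 (10.1 CPM against 4.39 to 8.43) but an Egln1 value inside the range of the others. Of 18 Pearson correlations of a member with the summed muscle markers within a genotype, 0 passed after adjustment (exact permutation test). In the knockout r was -0.855 for Egln1 and 0.833 for Hif1an (adjusted p = 0.164 for each). Spearman rho was -0.952 for Egln1 (exact permutation test, adjusted p = 0.0205) and 0.786 for Hif1an (adjusted p = 0.251). Without the 4 muscle-rich libraries the log2 fold changes were 2.57 for Egln1, 6.33 for Egln3 and -1.21 for Vhl. All were past the threshold and larger in size than with every library. The part of endothelial and blood RNA, which was higher in all knockout libraries, in these differences was not tested.

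**Figure D4:**
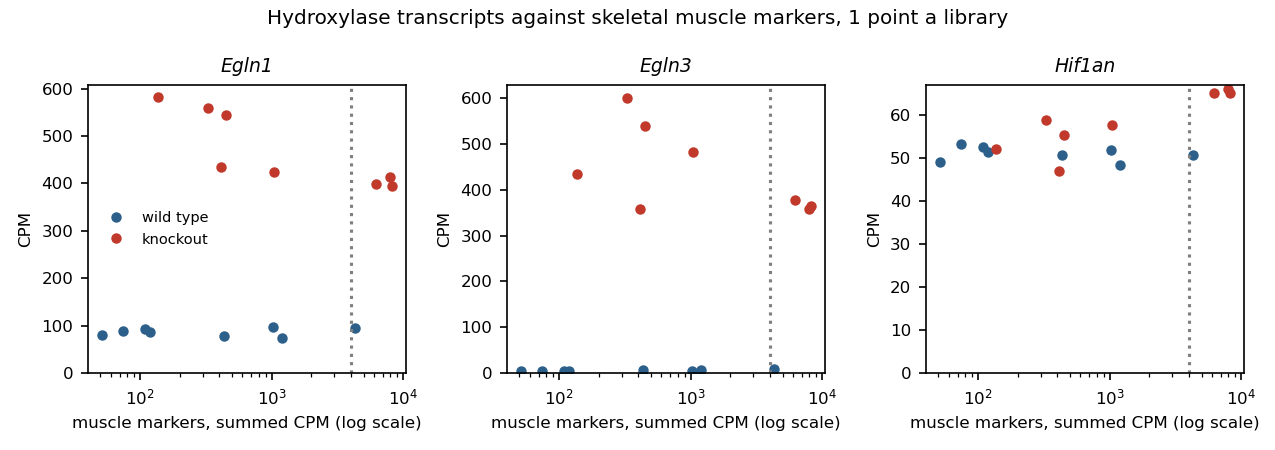
CPM of Egln1, Egln3 and Hif1an in each library against the summed CPM of 12 skeletal muscle markers (log axis), wild type in blue and knockout in red. The dotted line is 4000 CPM. The 3 knockout libraries to its right have the lowest Egln1 (395 to 414 CPM) and the highest Hif1an (65.0 to 66.0 CPM) of the knockout.

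Per kilobase of transcript, the wild type had more of Elob, Rbx1 and Eloc than of Vhl. The order was Elob (107 ± 11.7 CPM per kilobase, SD, n = 8), Rbx1 (26.9 ± 1.697), Egln1 (24.1 ± 2.38), Egln2 (20.03 ± 1.13), Eloc (15.8 ± 3.29), Hif1an (8.21 ± 0.267), Vhl (7.33 ± 1.32), Cul2 (7.24 ± 0.834) and Egln3 (2.44 ± 0.712). Of the neighbours in this order, Hif1an and Vhl (exact sign-flip permutation test over libraries, p = 0.0938, adjusted over 16 neighbours 0.10) and Vhl and Cul2 (adjusted p = 0.945) did not differ beyond their spread. In the knockout Egln3 (165 ± 34.8) and Egln1 (130.5 ± 21.9) stood first, ahead of Elob (93.6 ± 17.9), and Vhl stood last at 3.35 ± 0.447. With these lengths, every neighbouring pair of the knockout order was ranked the same way in all 8 libraries (exact permutation test, adjusted p = 0.0114 for each). The order depends on the length used. With the union of all annotated exons, Elob had 41.2 and Rbx1 9.91 CPM per kilobase in the wild type, and Rbx1 did not differ from Eloc (10.5) beyond the spread (exact permutation test, adjusted p = 0.527). In the knockout, Rbx1 was then above Eloc in 4 of 8 libraries (exact permutation test, adjusted p = 0.608) and Eloc above Hif1an in 5 of 8 (adjusted p = 0.192).

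Among themselves, within a genotype, the members varied together in few pairs. Correlations of log2 CPM were computed for 36 pairs in each genotype, 72 in all, of which 9 had an exact permutation p under 0.05 and 2 remained after adjustment. Of the 9, 5 joined Elob, Eloc, Cul2 and Rbx1 with each other in the knockout, where library 1 had the lowest value of each of these genes. Without the 2 libraries farthest from the median of the gene named first, r fell from 0.93 to 0.62 for Elob and Rbx1. It fell from 0.80 to 0.57 for Eloc and Cul2, from 0.82 to 0.66 for Cul2 and Rbx1, and from 0.88 to 0.79 for Elob and Eloc. In the knockout, Eloc and Rbx1 had Pearson r = 0.950 over 8 libraries (exact permutation p = 0.00126, adjusted 0.0455) and Spearman rho = 0.905 (exact permutation p = 0.00456, adjusted 0.257). Leaving out libraries 1 and 6, the farthest from the median of Eloc, r was 0.940. In the wild type, Eloc and Cul2 had r = 0.894 (exact permutation p = 0.000868, adjusted 0.0455) and rho = 0.881 (p = 0.00724, adjusted 0.257), and r = 0.819 without libraries 1 and 5. Egln1 and Egln3 in the knockout had r = 0.731 (exact permutation p = 0.0451), which did not pass after adjustment (0.370).

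The genes whose library-to-library pattern was closest to Vhl, Egln1 and Egln3 were taken after subtracting each genotype's mean, over 16 libraries and 13399 other genes. For Vhl they were Mri1 (r = 0.911), Rom1 (0.790) and Psme2b (0.745). For Egln1 they were Golim4 (0.932), Tm9sf2 (0.926) and Fam3c (0.925). For Egln3 they were Itgb8 (0.847), Usp20 (0.843) and Klf5 (0.840). These are the highest of many correlations across libraries that share differences in muscle RNA, and carry no p. Between genotypes, Rom1 fell (log2 fold change -1.28, adjusted p = 2.70e-07), as Vhl did. Golim4 (-0.55), Fam3c (-1.12), Klf5 (-0.81) and Tm9sf2 (-0.24) also fell, unlike Egln1 and Egln3, but with total counts Klf5 did not pass (adjusted p = 0.0652) and Tm9sf2 changed sign. The other 4 did not pass the threshold. With total counts Mri1 did, higher in the knockout by 0.49 (edgeR quasi-likelihood test, adjusted p = 2.59e-04), opposite to Vhl. Psme2b, Itgb8 and Usp20 did not pass there.

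Genes that work with the ligase or share the chemistry of the hydroxylases gave a scale for these differences. Of 127 such genes in 11 lists, 125 were tested, and 28 were higher and 26 lower in the knockout, which is 43.2% against the 48.3% of all genes. Their median log2 fold change was 0.04, where that of all tested genes was 0.02. With total counts 82 were higher and 5 lower, and the median was 0.34, where that of all genes was 0.32. Of all 14803 tested genes, 25.6% were higher and 22.7% lower on the TMM scale. With total counts 9685 passed, 8270 of them higher. The counts of single lists below are to be read beside these. Of the genes named from these lists, all 22 that were higher kept their call with total counts, but of the 19 that were lower only Senp8, Socs2, P4htm, Alkbh7 and Idh1 did. The other 14 lost it, and 7 of them changed sign. Because total counts move log2 fold changes upward (median of all genes from 0.02 to 0.32), rises keep their call and small falls lose it. The contrast between rises and falls is therefore a property of the scale and does not test these genes. Only Hif3a exceeded the rise of Egln1, and none fell as far as Vhl. The lists were chosen with results of these data known and are described by their counts.

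Of 4 genes of HIF subunits, Hif3a rose and Arnt fell. Hif3a, an alpha subunit family member with inhibitory forms, lay between 13.2 and 23.1 CPM (median 17.2) in the knockout and between 0.837 and 2.79 CPM (median 1.54) in the wild type. The groups did not overlap, and the fold change was 10.8 (log2 3.43, SE 0.207, adjusted p = 7.83e-11, edgeR quasi-likelihood test). Arnt, the common beta subunit, fell by 0.23 on the log2 scale (adjusted p = 5.30e-04), but its difference was 0.08 with total counts (adjusted p = 0.265). Hif1a and Epas1 did not pass the threshold on the TMM scale. With total counts 2 of the 4 genes were higher, Hif3a among them, and 0 were lower.

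The other cullins and the machinery that activates cullins had mostly small differences, whose direction depended on the scale. Of 8 cullins and RING partners, 2 were higher and 2 lower (6 and 0 with total counts): Rnf7, the RING partner of cullin 5, differed by 0.32 (adjusted p = 0.00360), Cul9 by 0.29, Cul1 by -0.38 (adjusted p = 2.32e-04) and Cul4b by -0.20. With total counts Cul1 was at -0.07 (adjusted p = 0.401) and Cul4b changed sign. Of 13 neddylation and cullin exchange genes, 2 were higher and 5 lower (5 and 1 with total counts). Senp8, a protease that processes and removes NEDD8, fell by 0.94 (SE 0.134, adjusted p = 8.68e-06), from between 4.25 and 7.11 CPM to between 2.17 and 3.10 CPM without overlap. Dcun1d4, a helper of NEDD8 transfer, fell by 0.47, but its difference was -0.16 with total counts (adjusted p = 0.173). Of the subunits of the NEDD8-activating enzyme, Uba3 was higher by 0.29 and Nae1 lower by 0.24, the latter changing sign with total counts, and the conjugating enzyme Ube2m was higher by 0.29. Of 10 subunits of the COP9 signalosome, which removes NEDD8 from cullins, 1 was higher (Cops8, 0.18) and 2 were lower (Cops9, -0.32, and Cops7a, -0.19). With total counts 7 were higher and 0 lower, Cops9 was at -0.03 (adjusted p = 0.862) and Cops7a changed sign.

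Enzymes and receptors that dock on cullins included a few clearer differences. Of 8 ubiquitin-conjugating and cullin-associated ligase genes, 2 were higher and 1 lower (7 and 0 with total counts). Arih2, a ligase that works with cullin 5, rose 1.79-fold (log2 0.84, SE 0.0637, adjusted p = 1.83e-09), from between 41.4 and 53.4 CPM to between 78.8 and 97.4 CPM. Ube2g1 was higher by 0.21, and Ube2r2 lower by 0.28 but higher by 0.02 with total counts. Of the 9 tested receptors that compete with VHL for cullin 2, 2 were higher (Fem1a, 0.55, and Fem1b, 0.29) and 2 lower (Zer1, -0.31, and Klhdc2, -0.18), against 7 and 0 with total counts. The difference of Klhdc2, whose exons overlap Nemf, changed sign with total counts, and that of Zer1 was -0.01 there. Of 16 receptors with a SOCS box, which use elongins B and C with cullin 5, 3 were higher and 2 lower (10 and 1 with total counts). Wsb1 rose from between 52.3 and 70.4 CPM to between 82.2 and 101 CPM (log2 0.52, adjusted p = 1.57e-06), and Wsb2 by 0.57 with exons that overlap Rfc5. Socs6 was higher by 0.28. Socs2, a suppressor of cytokine signalling, fell by 0.84 (adjusted p = 7.64e-05), and Socs5 fell by 0.38, but its difference was -0.09 with total counts (adjusted p = 0.514). Elongin A (Eloa) did not pass the threshold on the TMM scale (-0.01). With total counts it passed at 0.30, near the median of 0.32 of all genes there.

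Of 13 regulators of VHL or of the hydroxylases, 5 were higher and the other 8 did not pass the threshold (12 were higher with total counts). Among all 14803 tested genes, 25.6% were higher, and 8270 genes were higher with total counts. Ajuba, a LIM-domain scaffold, rose from between 7.76 and 16.04 CPM to between 17.2 and 24.5 CPM (log2 0.86, SE 0.123, adjusted p = 9.85e-06, edgeR quasi-likelihood test). Siah2, a ubiquitin ligase known to degrade EGLN2 and EGLN3, rose by 0.59 (SE 0.124, adjusted p = 5.25e-04, same test). Its median went from 9.02 CPM (6.37 to 12.1) to 12.99 CPM (11.6 to 17.3), with overlap. Siah1b was higher by 0.43 (adjusted p = 0.0133) with a mean of 2.91 CPM in the knockout. The median of the list was 0.13 and became 0.43 with total counts, against 0.02 and 0.32 for all genes.

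Of 24 other dioxygenases that use 2-oxoglutarate, 7 were higher and 6 lower, against 13 and 2 with total counts. Jmjd6, a lysyl hydroxylase of splicing factors, rose 3.27-fold (log2 1.71, SE 0.0871, adjusted p = 6.02e-12), from between 18.9 and 23.7 CPM to between 55.2 and 86.3 CPM. Its exons overlap Mettl23 on the other strand, so its counts are uncertain. Alkbh5, an RNA demethylase, rose by 0.72 (adjusted p = 9.10e-08) without overlap, and Asph, an aspartyl and asparaginyl hydroxylase whose exons overlap Clvs1, by 0.57. P4htm, a prolyl hydroxylase of the endoplasmic reticulum membrane also reported to act on HIF alpha, fell. Its lowest, median and highest values were 3.46, 5.32 and 5.48 CPM in the knockout and 7.68, 10.04 and 11.1 CPM in the wild type, with no overlap. The log2 fold change was -0.95 (SE 0.115, adjusted p = 1.16e-06), opposite to Egln1 and Egln3. Alkbh7 fell by 0.67 (-0.37 with total counts). Phyhd1, whose exons overlap other gene models, fell by 0.58, but its difference was -0.27 with total counts (adjusted p = 0.212).

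The last list held 19 genes whose products make, use or carry 2-oxoglutarate, succinate or fumarate, the co-substrate and inhibitors of the hydroxylases. Of these, 3 were higher and 5 lower, but 12 higher and 1 lower with total counts. Psat1, which yields 2-oxoglutarate in serine synthesis, rose from between 6.09 and 13.6 CPM to between 18.2 and 33.8 CPM (log2 1.41, SE 0.181, adjusted p = 3.36e-06). Got1 rose by 0.58 and Dlst by 0.22. Idh1, the cytosolic isocitrate dehydrogenase that makes 2-oxoglutarate, fell from between 94.9 and 135.5 CPM to between 47.5 and 79.2 CPM (log2 -0.88, SE 0.0990, adjusted p = 4.40e-07), without overlap. Idh2, its mitochondrial counterpart, fell by 0.38 and Sdha by 0.26, and neither passed with total counts (-0.07, adjusted p = 0.450, and 0.04, adjusted p = 0.671).

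**Figure D5:**
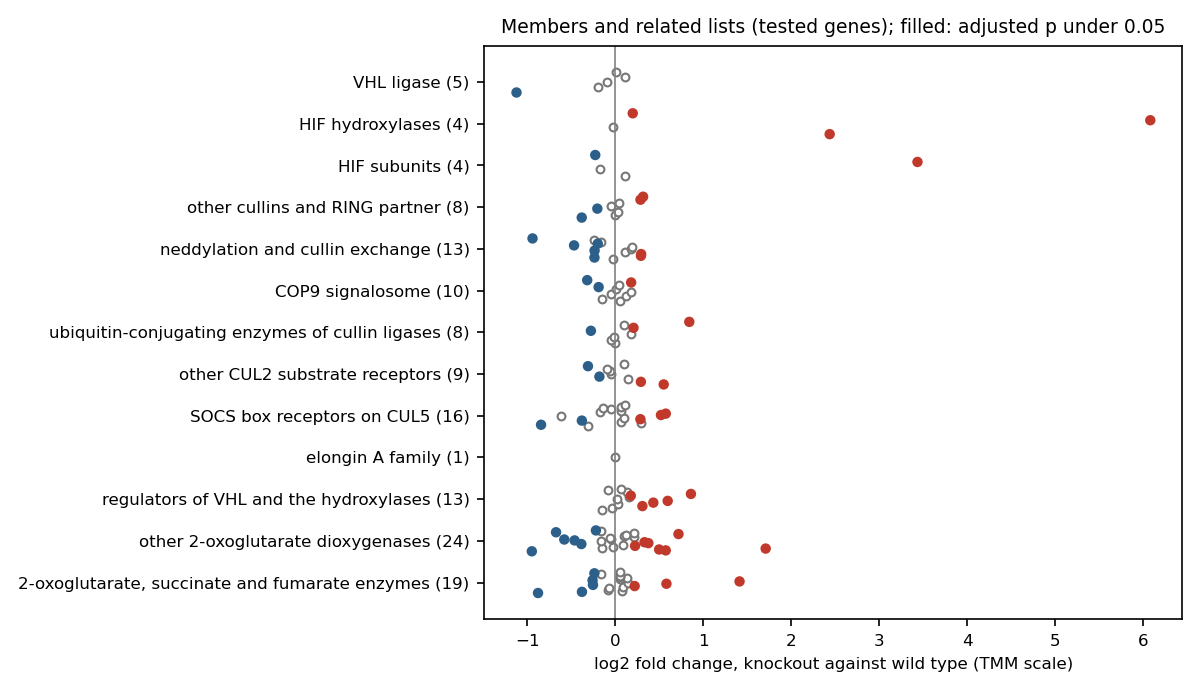
Log2 fold changes (TMM scale) of the tested genes of each list, with the number tested in brackets. Filled points passed an adjusted p of 0.05 (red higher, blue lower in the knockout) and open points did not. Egln3 (6.08), Hif3a (3.43) and Egln1 (2.43) lie beyond the other genes, and Vhl (-1.13) is the lowest.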

How the data were processed

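The deposited files hold raw counts per gene, 1 column of whole numbers per library, with a different total in each; the column is called matched counts per the file headers. The submitters' processing notes name kallisto, featureCounts and the build GRCm39, with no role or version; the annotation and the use of strand are not given in the sources used here. Symbols were matched for 25614 of 25719 identifiers. Exons of Elob and Egln2 overlap a neighbour on the other strand by 4 and 11 bases in GENCODE M21. Processed pseudogenes of Rbx1 and Vhl (Rbx1-ps, Vhl-ps1) have no count of their own here, so these counts may hold some of their reads. No library repeated another: the most similar pair had a chi-square of 6.85 per degree of freedom.

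The test was the two-sided quasi-likelihood F test of edgeR 4.0.16 (R 4.3.3) with TMM, robust dispersions, the default filter and genotype alone, adjusted by Benjamini-Hochberg over 14803 genes; 10916 were not tested. Ratios, shares and correlations used exact permutation tests over libraries. The fit was tested on simulated data. Alternatives were other scalings and filters, DESeq2 1.42.0, limma-voom 3.58.1, a replicate block, a muscle score (mean log2 CPM, prior count 2, of 12 markers) and libraries left out. Leaving out muscle-rich libraries and the exon-union length were chosen after seeing the data. The members and lists were chosen with earlier results of these data known. Besides the 9 members, up to 3 genes with the largest rise and 3 with the largest fall past the threshold were named per list, and 3 nearest patterns (mean log2 CPM of at least 1) each for Vhl, Egln1 and Egln3. Wild type and knockout sums overlapped for macrophage (2 of 8 tested markers higher), mural (4 higher and 1 lower of 7), Schwann (1 of 5 higher) and adipocyte markers (2 of 2 higher, median sum 11.3 against 1.05 CPM); keratinocyte markers were lower in the knockout (12.5 to 18.1 against 20.7 to 49.0 CPM).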

Additional observations from a re-analysis of the deposited data

Results flagged for a closer look

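In 40 checks of a group of 8 libraries, covering each member, each ratio and the Egln3 share, 1 extreme value lay far from the other 7 in 2 groups, where chance gives about 1 in 20. Eloc in knockout library 1 was at 4.44 log2 CPM, with the next knockout library at 4.82. The log2 ratio of Eloc to Elob in knockout library 5 was -1.04, with the next at -0.80.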

How the results depend on the processing

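The differences of Vhl, Egln1 and Egln3 kept their direction and passed the threshold under all 27 alternatives run, with log2 fold changes of -1.21 to -0.82, 2.38 to 2.74 and 6.00 to 6.36. The number of members past the threshold was 4, and 7 with total counts, where 9685 genes passed and Egln2 changed sign to 0.27. It was 3 with the muscle score as a covariate or without the muscle-rich libraries. Leaving out 1 library gave 4 or 5 members and 6790 to 7151 called genes; the fifth member was Elob without knockout library 5. Elob also passed with limma-voom (-0.23). Without the 4 libraries with high Scx, Elob passed and Hif1an did not. The log2 ratio of Hif1an to Egln2 lay between 0.18 and 0.29 with 1 library left out, and passed without knockout library 4 (0.29) or 5 (0.25) or wild type library 2 (0.24). Correlated member pairs numbered 4 with total counts against 2. Replicate numbers showed no clear pairing of the libraries: deviations of same-numbered libraries correlated above 0.1 in 3 of 8 pairs, and 1 of 8 knockout libraries was closest to its own number. Whether the same number marks a shared litter or day was not tested. With the number as a replicate block 7010 genes and 4 members passed, and no call of a member, a ratio or the Egln3 share changed. Depth limits Egln3 in the wild type and Vhl most, at 49 and 91 counts in their lowest libraries.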
